A study of Rattus norvegicus with 30 samples.

Results

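Ftcd, Col6a1 and 8 genes near them on rat chromosome 20 were described in brain RNA-seq of 30 male rats. The 10 genes are Slc19a1, Col6a1, Col6a2, Ftcd, Lss, Mcm3ap, Pcnt, Dip2a, S100b and Prmt2, given here in the order of the RefSeq gene table. All 10 were found by gene symbol among the 17134 genes of the deposited table. Ftcd and Col6a1 were chosen by their measured values in AKO rats, and the other members by their place beside them, so values of AKO rats are given as a description. Where AKO rats are compared with WT or HIP rats, no p-value of a member is printed. Intervals and counts of calls there serve only to show size and spread. Fits and correlations within the AKO rats are printed with their p-values, and these too serve only as a description. The rats were 10 wild type rats (WT), 10 HIP rats, whose transgene makes human amylin in the β-cells of the pancreas, and 10 amylin knockout rats (AKO). All were males on normal diet. HIP and WT rats were 15 to 16 months old, and the age of these AKO rats is not given in the sources used here. Iapp, the gene of amylin, is not analysed here, so the knockout was not checked at its own gene. The tissue is labelled frontal cortex and is named otherwise in parts of the study's text. Each library was 1 rat, and no source says whether rats of a group shared a litter, so the spread within a group is that between these rats.

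The 10 genes are neighbours on the chromosome and have unlike functions. Col6a1 and Col6a2 encode chains of collagen VI, a beaded filament of the extracellular matrix that in brain is made mainly by cells of the meninges and vessel walls. Ftcd encodes formimidoyltransferase cyclodeaminase, a liver enzyme that passes a one-carbon unit from histidine breakdown to folate, and Slc19a1 encodes the reduced folate carrier. Lss encodes lanosterol synthase, which closes the sterol ring in cholesterol synthesis. Mcm3ap encodes GANP, the scaffold of the TREX-2 complex that exports mRNA from the nucleus, and Pcnt encodes pericentrin, a scaffold of the centrosome. Dip2a encodes a DIP2 family protein found in neurons. S100b encodes a calcium-binding protein of astrocytes, and Prmt2 encodes a protein arginine methyltransferase.

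The start regions of Ftcd and Col6a1 are shown because these genes differed most between AKO and WT rats. They are RefSeq promoters of the assembly GRCr8, which is not the build of the deposited values (rn7), and they run from 250 bases before to 50 bases after the gene start. They are printed in the direction of transcription, and capitals mark a TATA box. The Ftcd window is chr20:12068170-12068469 on the minus strand, with a GC content of 55%. The Col6a1 window is chr20:11905440-11905739 on the plus strand, with a GC content of 59.7%.
Ftcd: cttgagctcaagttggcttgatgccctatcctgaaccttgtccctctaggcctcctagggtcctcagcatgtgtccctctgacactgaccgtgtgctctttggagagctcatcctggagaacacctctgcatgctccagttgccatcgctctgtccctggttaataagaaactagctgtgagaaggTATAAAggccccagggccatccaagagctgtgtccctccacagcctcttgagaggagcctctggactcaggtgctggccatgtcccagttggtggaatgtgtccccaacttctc
Col6a1: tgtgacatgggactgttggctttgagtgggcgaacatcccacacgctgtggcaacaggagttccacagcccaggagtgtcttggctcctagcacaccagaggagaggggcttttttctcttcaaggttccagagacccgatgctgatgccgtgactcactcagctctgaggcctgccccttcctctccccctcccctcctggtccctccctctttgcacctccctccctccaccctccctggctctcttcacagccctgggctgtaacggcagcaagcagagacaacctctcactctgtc

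Promoters were found for 7 of the 10 genes. They were searched on both strands for 4 short motifs. The TATA box, spelled TATAAA, was in 1 of the 7, in Ftcd, where it begins 64 bases before the start, and in 14.2% of 33469 promoters of the same length. The motif CCAAT was in 4 of the 7 and in 37.5% of all promoters. The GC box, spelled GGGCGG, was in 4 of the 7 and in 33.1% of all promoters. The E-box, spelled CACGTG, reads the same on both strands and was in 0 of the 7 and in 6.42% of all promoters. In Pcnt, matches of the CCAAT motif on opposite strands share bases. Ftcd and Col6a1 had none of these motifs in common, and the Col6a1 window held none of the 4.

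Levels are the authors' normalized counts, that is, reads per gene scaled by DESeq2 so that rats of different depth can be compared. Differences are on the scale of log2(normalized count + 1), which understates the change of genes with few reads. The depth, as estimated reads on genes, ran from 12.9 to 23.6 M (mega) over the 30 rats, with medians of 19.1 M for WT, 15.7 M for HIP and 16.1 M for AKO. All 8 markers of cortical excitatory neurons were in the table, and their summed level was 14407 to 76682 normalized counts in WT rats, lowest in 10RT43, 50528 to 74401 in HIP rats and 49947 to 77976 in AKO rats. Several libraries stood apart from their group. WT rat 10RT43 had the highest cerebellum markers and a median correlation of 0.852 across genes with the other rats, against a median of 0.974 over all rats. HIP rat 12RT23 also had high cerebellum markers, HIP rat 10RT46 high pineal gland and choroid plexus markers, and AKO rat 7AKO19 high choroid plexus markers. AKO rats 6KAH98 and 4KAH27 had median correlations of 0.936 and 0.949. Values without these 6 libraries, which were picked after the data were seen, are given beside the results that rest on them.

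Col6a1 and Ftcd were chosen by their AKO values, so their calls against AKO rats restate that choice and are printed only as counts. In AKO vs. WT rats these 2 of the 10 genes were under an adjusted p of 0.05 (limma, Benjamini-Hochberg over 17058 genes), both higher in AKO rats. The background is 0.0528% of all genes tested called higher in AKO rats, and 0.0997% called in either direction. At an unadjusted p under 0.05, 4 of the 10, Col6a1, Col6a2, Ftcd and Lss, were higher in AKO rats, against 5.23% of all genes, and 0 were lower. The median log2 difference of the 10 genes was 0.19, and that of all genes tested was 0.0014. In HIP vs. AKO rats, which uses the same AKO rats, 1 of the 10, Col6a1, was called lower in HIP rats, against 0.0995% of all genes in that direction and 0.17% in either. At an unadjusted p under 0.05, 5 were lower in HIP rats, against 6.9% of all genes, and S100b was the gene added to the 4 above. Nothing is read from these counts.

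**Figure D1:**
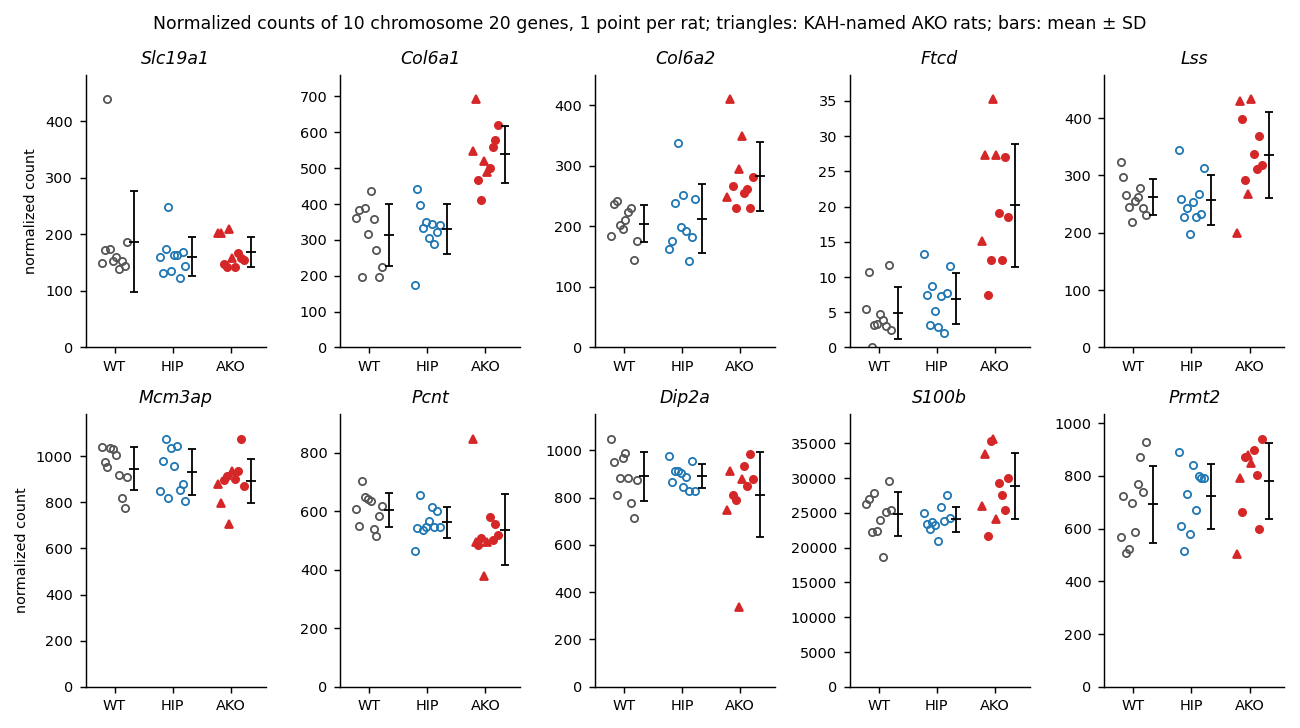
Normalized counts (y axis, from 0) of each of the 10 genes in WT, HIP and AKO rats, with 1 point per rat, triangles for AKO rats with KAH in their name, and bars for the mean ± SD of 10 rats. The AKO points of Ftcd (7.42 to 35.2) and Col6a1 (411 to 692) lie mostly above the WT points (0 to 11.7 and 196 to 435), while the 3 groups share most of their range for Mcm3ap, Dip2a and Prmt2.

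Col6a1, the α1 chain of collagen VI, was at 196 to 435 normalized counts in WT rats (median 338), 174 to 443 in HIP rats (median 337) and 411 to 692 in AKO rats (median 534). WT and HIP rats covered the same range, and 9 of 10 AKO rats were above every WT rat and above every HIP rat. The exception was AKO rat 6AKO52, with 411. The means were 313 ± 86.1, 330 ± 70.4 and 538 ± 80.0 (SD, n = 10 each), so the AKO mean was 1.72-fold the WT mean. The log2 difference of AKO vs. WT was 0.82 (95% CI 0.52 to 1.12), and that of HIP vs. AKO was -0.73 (95% CI -0.99 to -0.47). Without the 6 libraries that stood apart, these differences were 0.76 and -0.76. The HIP vs. WT difference was 0.09 (95% CI -0.25 to 0.44, limma, adjusted p = 0.999).

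Col6a2 encodes the α2 chain, which joins the α1 chain in the same collagen VI molecule. It was at 144.96 to 242 normalized counts in WT rats (median 207), 142.02 to 337 in HIP rats (median 196) and 230 to 410 in AKO rats (median 264). All 10 AKO rats were above the WT median, 8 were above every WT rat, and 2 were above every HIP rat. The highest HIP value, 337, belonged to 10RT46, a library that stood apart. The means were 205 ± 30.5, 213 ± 56.9 and 283 ± 56.8. The log2 difference of AKO vs. WT was 0.46 (95% CI 0.22 to 0.69), and it was 0.52 without the 6 libraries. HIP vs. WT rats differed by 0.03 (95% CI -0.25 to 0.30, limma, adjusted p = 0.999).

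Collagen VI is also made by fibroblasts of the meninges, so markers of these cells stand beside both genes. Of 11 markers, 10 were in the table. At an unadjusted p under 0.05, 0 of 10 differed between AKO and WT rats, against 9.34% of all genes. The median log2 difference of the 10 was 0.21. Col1a1, Col3a1 and Lum, fibroblast genes of this list picked by hand, were detected in every group. Their AKO and WT means were 471 and 338, 401 and 254, and 60.1 and 62.2. The summed level of the 10 markers was 2953 to 8533 normalized counts in WT rats, 2788 to 8127 in HIP rats and 2289 to 10978 in AKO rats. The lowest and the highest of all 30 rats were both AKO rats, 4KAH27 and 4KAH35. With the mean log2 level of these markers as a covariate, an alternative chosen after the data were seen, the AKO vs. WT difference was 0.81 for Col6a1 and 0.40 for Col6a2, and Col6a2 was then called as well. For vessel walls, 2 of 6 mural markers and 1 of 4 endothelium markers had AKO vs. WT differences above 0. Their medians were -0.14 and -0.10, and 0 of them had an unadjusted p under 0.05. The part of vessel wall cells in the level of Col6a1 and Col6a2 was not tested. In bulk tissue, more cells of a type and more RNA per cell cannot be told apart.

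**Figure D2:**
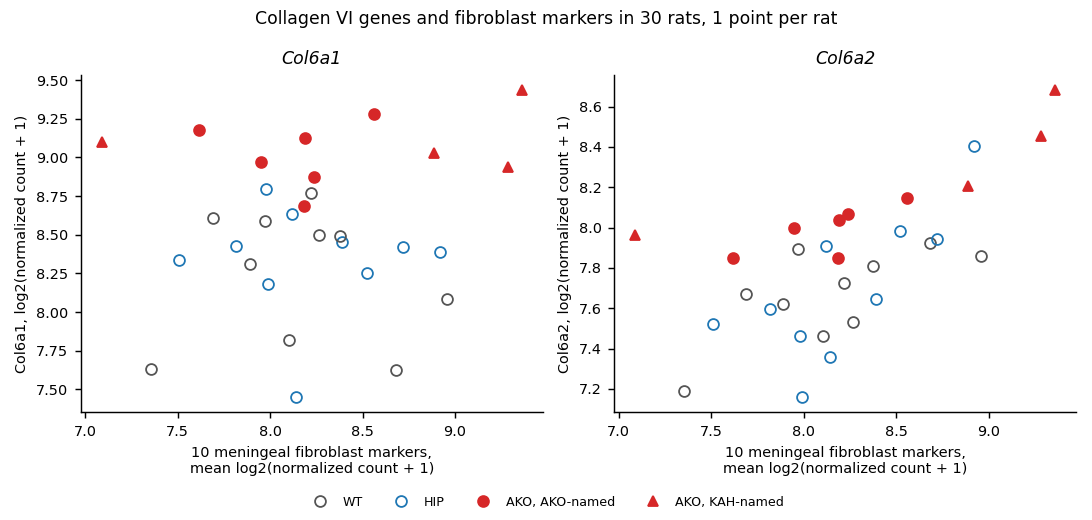
Level of Col6a1 (left) and Col6a2 (right) against the mean level of 10 meningeal fibroblast markers, all as log2(normalized count + 1), with 1 point per rat coloured by group and triangles for KAH-named AKO rats. AKO rats lie above most WT and HIP rats for Col6a1. They span the marker axis from 7.09 in 4KAH27 to 9.36 in 4KAH35. WT rats span only 7.35 to 8.96 and HIP rats 7.51 to 8.92, so both ends of the axis hold AKO rats alone.

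Of the other collagen VI chains and binding proteins, 9 were tested and 0 were called in any comparison. Cspg4, the NG2 proteoglycan that binds collagen VI, was at 442 ± 99.1 in AKO rats vs. 350 ± 61.4 in WT rats. It was the only 1 of the 9 with an unadjusted p under 0.05 there, against 9.34% of all genes. The largest AKO vs. WT differences were 0.42 for Bgn (biglycan) and 0.35 for Col6a5. Col6a3, the α3 chain of the classical collagen VI molecule, was at 99.2 ± 64.2 in AKO rats, 88.4 ± 26.8 in HIP rats and 88.7 ± 44.8 in WT rats, a difference of 0.06 for AKO vs. WT. The smallest HIP vs. WT p-values in this list were those of Col6a5 and Col6a6, with differences of 1.06 and 0.24 (limma, adjusted p = 0.999 for both). Cspg4 and Col6a3 are named after their values were seen.

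Ftcd had few reads in every rat, 0 to 13 estimated reads in WT, 2 to 11 in HIP and 9 to 33 in AKO rats. Its normalized counts were 0 to 11.7 in WT rats (median 3.61), 2.09 to 13.2 in HIP rats (median 7.39) and 7.42 to 35.2 in AKO rats (median 18.8). The AKO range began inside the WT and HIP ranges, where AKO rat 6AKO35 stood at 7.42, while the other 9 AKO rats were above every WT rat and 7 were above every HIP rat. The means were 4.85 ± 3.67, 6.95 ± 3.68 and 20.2 ± 8.76 (SD, n = 10 each), so the AKO mean was 4.16-fold the WT mean and 2.90-fold the HIP mean. At this depth 3 WT rats and 3 HIP rats had at most 3 estimated reads, which a count of 0 allows, and 0 AKO rats did. The listed 0 is in WT rat 10RT43, where 3 reads correspond to 3.59 normalized counts. These limits cover counting error only.

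The log2 difference of Ftcd was 2.01 for AKO vs. WT (95% CI 1.24 to 2.78) and -1.45 for HIP vs. AKO (95% CI -2.08 to -0.81). Without the 6 libraries it was 1.66 and -1.51. Its count among the calls above was not stable. Ftcd missed the threshold in 11 of the 20 AKO vs. WT fits that left out 1 rat. Those rats were WT rats 10RT38, 10RT44, 10RT45, 10RT47, 10RT50, 10RT51 and 10RT57, and AKO rats 4KAH35, 6KAH98, 7AKO19 and 7AKO42, and the differences over all 20 such fits were 1.76 to 2.17. In HIP vs. AKO rats Ftcd missed the call with all rats and passed it when HIP rat 10RT37 or 10RT46, or AKO rat 4KAH27 or 6AKO35, was left out. For HIP vs. WT, Ftcd differed by 0.56 (95% CI -0.25 to 1.38, limma, adjusted p = 0.999). It was 0.31 without 10RT43, which holds the 0, and 0.15 without the 6 libraries. The order of the means, AKO, HIP and WT, was thus not resolved between HIP and WT.

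Ftcd is best known from liver. Of 11 liver markers, a list added after the data were seen, 3 were in the table. Their summed level was 20.3 to 214 normalized counts in WT rats, 119 to 278 in HIP rats and 98.9 to 241 in AKO rats. Alb, albumin, was at 156.03 ± 37.8 in AKO rats vs. 140.55 ± 52.5 in WT rats, and Serpina1, α1-antitrypsin, at 35.4 ± 16.4 vs. 22.3 ± 10.4. None of the 3 was called in any comparison (limma, adjusted). Serpina1 alone had an unadjusted p under 0.05 in AKO vs. WT rats, against 9.34% of all genes. The part of liver markers in the level of Ftcd was not tested.

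Slc19a1, the reduced folate carrier, was at 139.23 to 439 normalized counts in WT rats (median 156.55), 122 to 248 in HIP rats (median 161) and 143.12 to 209 in AKO rats (median 158.72). The WT maximum was 10RT43 and the HIP maximum was 10RT46, both libraries that stood apart, and the other WT rats ended at 186. The AKO vs. WT difference was -0.07 (95% CI -0.41 to 0.27) and its sign depended on the rats used. It was 0.08 without WT rat 10RT43, 0.02 without the 6 libraries, -0.20 with AKO-named rats alone and 0.13 with KAH-named rats alone. Between HIP and WT rats Slc19a1 differed by -0.15 (95% CI -0.50 to 0.20, limma, adjusted p = 0.999). This rested on 10RT43, without which it was -0.0056, and it was -0.07 without the 6 libraries.

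Of 25 further enzymes and carriers of folate and histidine one-carbon metabolism, 22 were tested and 0 were called in any comparison. In AKO vs. WT rats, 3 were higher and 2 lower at an unadjusted p under 0.05, against 9.34% of all genes in either direction. The median difference was 0.04. Folr2, a folate receptor of macrophages, was at 25.7 ± 4.26 vs. 17.1 ± 3.99 (difference 0.57). Folr1, a folate receptor that is also a choroid plexus marker, had the largest difference, 1.15, with 10.9 ± 22.8 vs. 2.77 ± 4.01, and AKO rat 7AKO19 was high in choroid plexus markers. Slc25a32, the mitochondrial folate carrier, and Aldh1l1 had the smallest p-values in HIP vs. WT rats, with differences of -0.16 and -0.11 (limma, adjusted p = 0.999 for both).

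Lss, lanosterol synthase, was at 219 to 323 normalized counts in WT rats (median 259), 198 to 345 in HIP rats (median 249) and 199 to 433 in AKO rats (median 327). Of the AKO rats, 9 of 10 were above the WT median and 5 were above every WT rat, while 4KAH27 was below every WT rat with 199. The means were 262 ± 31.2, 257 ± 43.2 and 336 ± 74.2. The log2 difference of AKO vs. WT was 0.33 (95% CI 0.08 to 0.58) and that of HIP vs. AKO was -0.37 (95% CI -0.63 to -0.10). Without the 6 libraries, 4KAH27 among them, they were 0.47 and -0.54, and Lss was then called in HIP vs. AKO. Between HIP and WT rats Lss differed by -0.04 (95% CI -0.23 to 0.16, limma, adjusted p = 0.999).

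Lss is a late enzyme of cholesterol synthesis. Of 16 other enzymes of the pathway tested, 0 were higher and 2 lower in AKO vs. WT rats at an unadjusted p under 0.05. The share of all genes in either direction was 9.34%. The median difference of the 16 enzymes was -0.07, and 0 were called. Tm7sf2, a sterol reductase, was at 117 ± 38.3 vs. 148.34 ± 20.2 (difference -0.39), and Idi1, isopentenyl diphosphate isomerase, at 409 ± 102 vs. 543 ± 256 (difference -0.35). Sqle, squalene epoxidase, and Mvk, mevalonate kinase, had the smallest p-values in HIP vs. WT rats, with differences of 0.21 and -0.12 (limma, adjusted p = 0.999 for both).

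Mcm3ap, Pcnt and Prmt2 act in the nucleus and at the centrosome, and none had an unadjusted p under 0.05 in a comparison of the 3 groups. Mcm3ap was at 775 to 1038 normalized counts in WT rats (median 964), 808 to 1073 in HIP rats (median 920) and 707 to 1077 in AKO rats (median 899). Its AKO vs. WT difference was -0.09 (95% CI -0.24 to 0.07) and its HIP vs. WT difference was -0.03 (95% CI -0.17 to 0.12). Although 9 of 10 AKO rats were below the WT median, only 1 was below every WT rat. Of 7 other proteins of TREX-2 and mRNA export tested, 0 differed in AKO vs. WT rats at an unadjusted p under 0.05, where the largest differences were 0.12 for Nxf1 and 0.12 for Eny2. In HIP vs. WT rats the smallest p-values were those of Eny2, with a difference of 0.15, and Sem1, with -0.12 (limma, adjusted p = 0.999 for both).

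Pcnt was at 515 to 704 normalized counts in WT rats (median 612), 465 to 654 in HIP rats (median 546) and 379 to 849 in AKO rats (median 506). Of the AKO rats, 6 of 10 were below every WT rat, but 4KAH27 was the highest of all rats with 849. The AKO vs. WT difference was -0.19 (95% CI -0.40 to 0.02), and it was -0.27 without 4KAH27. HIP vs. WT rats differed by -0.10 (95% CI -0.24 to 0.03, limma, adjusted p = 0.999). Among 18 other centrosome genes, 1 was higher and 1 lower in AKO vs. WT rats at an unadjusted p under 0.05. The share of all genes in either direction was 9.34%, and the median difference of the 18 was -0.07. Cenpj, a centriole elongation factor, was at 137.36 ± 22.2 vs. 107 ± 20.4, and Aspm, a spindle pole protein, had the largest difference, 0.38. Cep152 and Tubg1 had the smallest p-values in HIP vs. WT rats, with differences of -0.23 and -0.09 (limma, adjusted p = 0.999 for both).

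Prmt2 was at 506 to 930 normalized counts in WT rats (median 709), 514 to 892 in HIP rats (median 762) and 503 to 941 in AKO rats (median 827). The 3 groups covered nearly the same range. The AKO vs. WT difference was 0.18 (95% CI -0.09 to 0.44) and the HIP vs. WT difference was 0.07 (95% CI -0.18 to 0.32, limma, adjusted p = 0.999). Of 9 other arginine methyltransferase genes, 1 was lower in AKO vs. WT rats at an unadjusted p under 0.05 (all genes 9.34%, either direction). This was Prmt1, the main enzyme of asymmetric dimethylation, at 353 ± 141.84 vs. 447 ± 46.4 (difference -0.43), followed by Prmt6 with a difference of -0.19. Prmt6 and Prmt7 had the smallest p-values in HIP vs. WT rats, with differences of -0.20 and -0.05 (limma, adjusted p = 0.999 for both).

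Dip2a and S100b lie beside each other, and their ends overlap in the RefSeq table. Whether the authors counted reads by strand is not stated, so reads from the overlap could not be assigned with certainty. Dip2a was at 715 to 1049 normalized counts in WT rats (median 883), 828 to 975 in HIP rats (median 895) and 338 to 983 in AKO rats (median 863). Rat 6KAH98 alone was low, at 338, and the other AKO rats began at 747. The AKO vs. WT difference was -0.17 (95% CI -0.47 to 0.13), and it was -0.04 without 6KAH98. Its HIP vs. WT difference was 0.01 (95% CI -0.12 to 0.14, limma, adjusted p = 0.999). The other family members, Dip2b and Dip2c, differed by -0.25 and -0.08 in AKO vs. WT rats and by 0.01 and 0.00 in HIP vs. WT rats, with 0 of 2 at an unadjusted p under 0.05.

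S100b was at 18730 to 29614 normalized counts in WT rats (median 25320), 20957 to 27646 in HIP rats (median 23780) and 21736 to 35695 in AKO rats (median 28448). Of the AKO rats, 8 of 10 were above the WT median and 4 were above every WT rat. The means were 24866 ± 3153, 24064 ± 1816 and 28881 ± 4781. The AKO vs. WT difference was 0.21 (95% CI -0.0011 to 0.42) and fell to 0.13 after quantile normalization, while that of HIP vs. AKO was -0.25 (95% CI -0.43 to -0.07). HIP vs. WT rats differed by -0.04 (95% CI -0.20 to 0.12, limma, adjusted p = 0.999). S100b is a product of astrocytes, and 0 of 9 astrocyte markers differed in AKO vs. WT rats at an unadjusted p under 0.05, with a median difference of 0.10. The summed astrocyte level was 53105 to 86282 in WT rats (median 56712, highest in 10RT43) and 47128 to 71930 in AKO rats (median 64238). In HIP vs. AKO rats 1 of the 9 had an unadjusted p under 0.05, Gfap, an astrocyte filament protein, lower in HIP rats at 8278 ± 3128 vs. 11279 ± 2804. The share of all genes at an unadjusted p under 0.05 was 9.34% in AKO vs. WT and 12.7% in HIP vs. AKO rats. The part of astrocytes in the level of S100b was not tested.

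Other S100 genes lie elsewhere in the genome. Of 10 tested, 5 were higher and 0 lower in AKO vs. WT rats at an unadjusted p under 0.05, against 9.34% of all genes in either direction. Their median difference was 0.43, and 0 were called. S100a8 and S100a9, the calprotectin subunits of neutrophils and monocytes, had the largest differences, 1.78 and 1.81. S100a8 was at 23.4 ± 39.8 vs. 2.88 ± 1.98 and S100a9 at 36.9 ± 62.7 vs. 4.53 ± 2.79, so that the SD exceeded the mean in AKO rats. S100a9 and S100a16 had the smallest p-values in HIP vs. WT rats, with differences of 0.91 and -0.16 (limma, adjusted p = 0.999 for both).

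HIP vs. WT was tested, because HIP values are not known to have entered the choice of the 10 genes, although its WT rats are also those of AKO vs. WT. Of the 10, 0 were called, against 0% of 17085 genes (limma, adjusted), and 0 had an unadjusted p under 0.05, against 2.57%. Their median log2 difference was -0.01, 5 were above 0, and the range was -0.15 in Slc19a1 to 0.56 in Ftcd, both of which shrank without 10RT43 as given above. The intervals leave room for a HIP vs. WT change of Ftcd as large as 1.38 and of Col6a1 as large as 0.44. For Mcm3ap, Dip2a and S100b every bound was within 0.20 of 0.

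Between the 10 genes and beside them lie other genes, which place the differences along the chromosome. Of the genes within 20 table entries on each side and between the members, 23 were matched, 8 before, 4 between and 11 after. In AKO vs. WT rats 0 of the 23 were called, and the median difference was 0.01. An unadjusted p under 0.05 was found for 4, 2 of them higher in AKO rats, against 9.34% of all genes in either direction. The 4 matched genes between the members, Pcbp3, Spatc1l, Ybey and C20h21orf58, had differences of -0.19, -0.35, -0.11 and 0.54, none with an unadjusted p under 0.05. Further entries lie between the members, also between Col6a1 and Col6a2, but were not matched and have no values here. Spatc1l stands between Ftcd and Lss, and was at 28.3 ± 15.8 in AKO rats vs. 34.96 ± 16.8 in WT rats. Pcbp3, between Slc19a1 and Col6a1, was at 1011 ± 894 vs. 1150 ± 806. The confidence interval of the Spatc1l difference was -1.03 to 0.32, so its direction was not resolved. Ftcd and Col6a1 were chosen by their AKO values, so nothing is read from the order of the AKO vs. WT differences along the chromosome.

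Of the neighbours farther out, the 4 with an unadjusted p under 0.05 are named after their values were seen. Itgb2, the β2 integrin of leukocytes, was at 226 ± 49.97 in AKO rats vs. 161 ± 29.6 in WT rats (difference 0.48), and Derl3, of ER-associated degradation, at 106 ± 16.4 vs. 83.7 ± 16.8 (0.35). Adarb1, an RNA-editing enzyme, was at 4359 ± 879 vs. 5265 ± 817 (-0.28), and Chchd10, a mitochondrial protein, at 3312 ± 765 vs. 3809 ± 427 (-0.22). All 4 missed the adjusted threshold (limma, adjusted p = 0.218, 0.367, 0.446 and 0.522). Beside Itgb2, 3 of 7 microglia markers were higher in AKO rats at an unadjusted p under 0.05, against 5.23% of all genes, and 0 were called. The AKO vs. WT differences of the 7 ran from -0.48 to 0.67, with 5 above 0. Their summed level was 4204 to 6966 in AKO rats, 2646 to 5809 in WT rats and 3784 to 12400 in HIP rats, highest in 10RT48. The part of microglia in the level of Itgb2 was not tested. Over the 408 other chromosome 20 genes tested, 1 was called (0.245%) and 44 had an unadjusted p under 0.05 (10.8%), beside 0.0997% and 9.34% of all genes. In HIP vs. WT rats 0 of the 23 were called and 2 had an unadjusted p under 0.05. In HIP vs. AKO rats 22 of the 23 were tested and 0 were called. An unadjusted p under 0.05 was found for 2, both lower in HIP rats, against 12.7% of all genes in either direction. These were Derl3 (-0.59, limma, adjusted p = 0.0762) and Itgb2 (-0.50, limma, adjusted p = 0.349). The Derl3 difference was larger in size than those of Col6a2 (-0.43) and Lss (-0.37), and smaller than those of Col6a1 (-0.73) and Ftcd (-1.45).

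**Figure D3:**
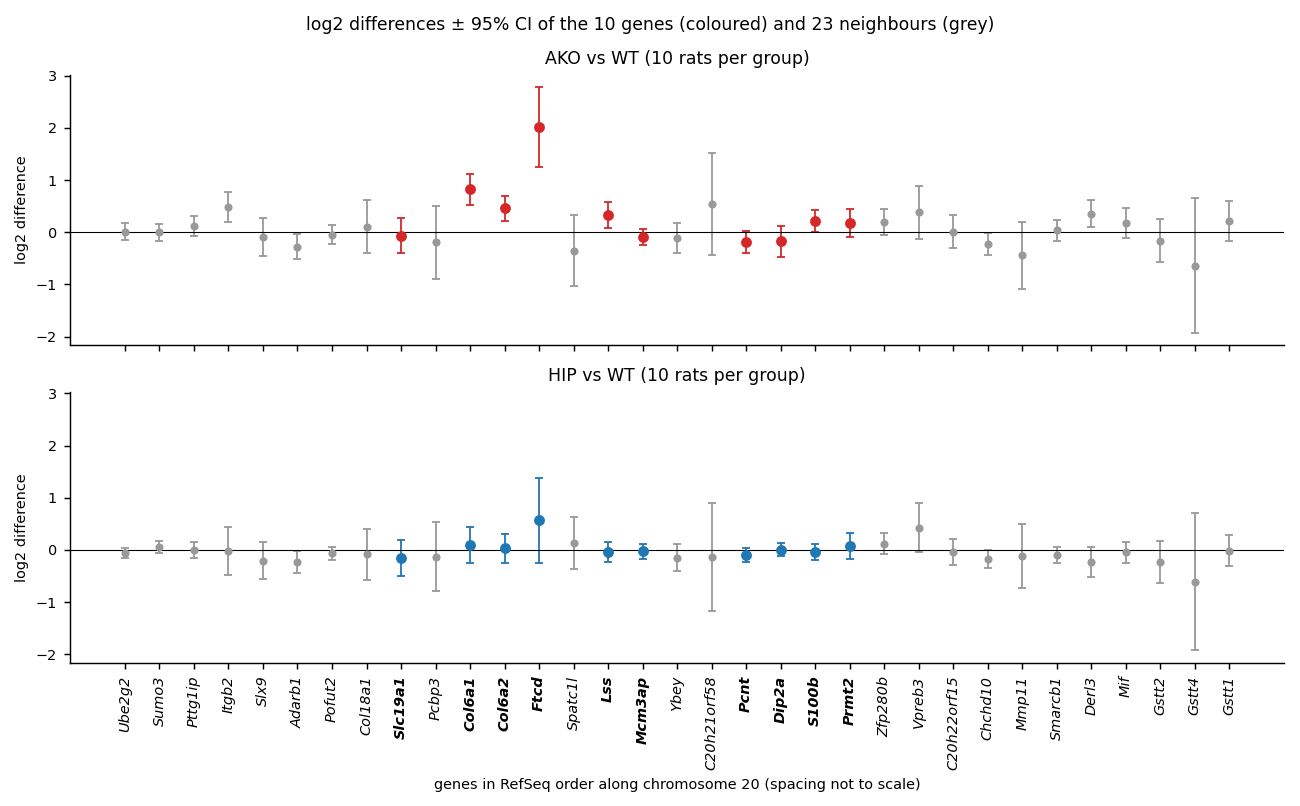
Differences in log2(normalized count + 1) with 95% confidence intervals for AKO vs. WT (top) and HIP vs. WT (bottom), 10 rats per group, with the 10 genes coloured and 23 neighbours in grey, in gene order along chromosome 20. In the top panel Col6a1 (0.82), Col6a2 (0.46), Ftcd (2.01) and Lss (0.33) have intervals above 0, and in the bottom panel the intervals of all 10 genes include 0.

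Ftcd and Col6a1 varied together over the 30 rats, with r = 0.62 and Spearman rho = 0.66 on the log2 scale. After the mean of each group was taken away, r was 0.17. These correlations are descriptions over rats that fall into groups. Among 15525 genes with a mean of at least 10, Ftcd was the 26th most like Col6a1 by absolute r, and Col6a2 was the 23rd, with r = 0.63 (0.34 without group means). Ranked by likeness to Ftcd, Col6a1 was only the 266th, S100b the 380th (r = 0.60) and Col6a2 the 2723rd (r = 0.44). Without group means, r with Ftcd was 0.43 for S100b and 0.01 for Col6a2. Within each group of 10 rats, the correlations of 4 pairs (Col6a1 with Col6a2, Col6a1 with Ftcd, Col6a2 with Ftcd, Ftcd with Lss) were tested, 12 relations in all and chosen after the data were seen. For Col6a1 and Ftcd, r was 0.36 in WT rats, -0.28 in HIP rats and 0.44 in AKO rats, with Spearman rho of 0.38, -0.10 and 0.43. The permutation p was 0.32, 0.47 and 0.20 for r, and 0.28, 0.78 and 0.22 for rho (adjusted 0.58, 0.63 and 0.48, and 0.78, 0.88 and 0.78). Without the 2 rats farthest from the median of Col6a1, r was 0.59, 0.26 and 0.23. For Ftcd and Lss, r was 0.19 in WT rats, 0.44 in HIP rats and 0.12 in AKO rats. Without the 2 rats farthest from the median of Ftcd, it was 0.67, 0.79 and 0.73. For Col6a1 and Col6a2, r was 0.34 in WT, 0.30 in HIP and 0.50 in AKO rats. It was 0.38, 0.37 and -0.34 without the 2 rats farthest from the median of Col6a1. For Col6a2 and Ftcd, r was -0.45, 0.13 and 0.46 in the same order. Without the 2 rats farthest from the median of Col6a2, it was -0.29, -0.58 and 0.19. These values without 2 rats were not tested. The smallest adjusted p over the 12 relations, with all rats, was 0.48.

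**Figure D4:**
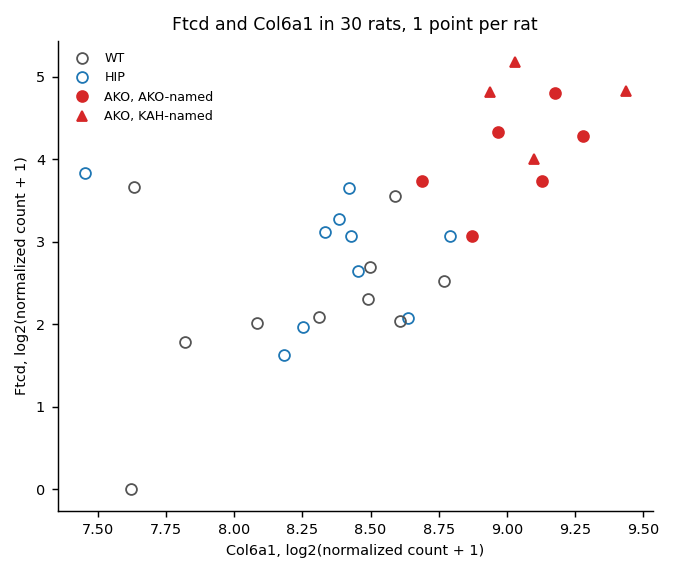
Level of Ftcd (y axis) against Col6a1 (x axis), both as log2(normalized count + 1), with 1 point per rat coloured by group and triangles for KAH-named AKO rats. The AKO rats gather at the upper right and the WT and HIP rats are mixed at lower levels, with WT rat 10RT43 at 0 for Ftcd; r is 0.62 over the 30 rats and 0.17 once group means are taken away.

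Genes elsewhere in the genome were more like Ftcd than any of the other 9 genes was. The 3 most like it over the 30 rats were Igfbp6 on chromosome 7 (r = 0.81), Eri2 on chromosome 1 (r = -0.78) and Pcdhb9 on chromosome 18 (r = -0.76). With group means taken away, r was 0.58, -0.71 and -0.49. Igfbp6, which encodes an insulin-like growth factor binding protein, was at 178 ± 51.5 in WT, 179 ± 58.2 in HIP and 414 ± 132.09 in AKO rats. For Col6a1 the 3 most like genes were Htra1 on chromosome 1 (r = 0.76), Vasn on chromosome 10 (r = 0.73) and Olr1694 (r = -0.72). Olr1694 is an olfactory receptor gene whose chromosome was not found here, so it may or may not lie on chromosome 20. Without group means, r of the 3 was 0.53, 0.64 and -0.39. Htra1, a secreted serine protease, was at 1872 ± 391 in WT, 1925 ± 298 in HIP and 2869 ± 822 in AKO rats.

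The AKO rats carry names of 2 kinds in their titles, 6 with AKO and 4 with KAH, and the labels do not say what the names mark. Ftcd was at 15.1, 27.4, 35.2 and 27.3 normalized counts in the KAH-named rats 4KAH27, 4KAH35, 6KAH98 and 6KAH99. In AKO-named rats it was 7.42 to 26.98 (median 15.4). The ranges overlapped, and AKO-named rats differed from KAH-named rats by -0.71 (95% CI -1.51 to 0.09, limma, adjusted p = 0.894). Col6a2 was at 248, 410, 294 and 350 in the same KAH-named rats and at 230 to 282 in AKO-named rats (median 258), a difference of -0.33 (95% CI -0.67 to 0.0049, adjusted p = 0.894 by limma). Col6a1 differed by -0.11 (95% CI -0.43 to 0.22, adjusted p = 0.907 by limma). The summed level of the meningeal fibroblast markers was 2289, 10978, 8034 and 9873 in the same KAH-named rats. In AKO-named rats it was 2886 to 6928. The part of fibroblasts in the differences of the collagen VI genes between the names was not tested.

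Of the 10 genes, 0 were called between AKO-named and KAH-named rats, against 0.00587% of all genes, and 1 had an unadjusted p under 0.05, against 4.9%. This was Slc19a1, at 158.85 to 209 in KAH-named rats and 143.12 to 167 in AKO-named rats, with a difference of -0.33 (95% CI -0.64 to -0.02, limma, adjusted p = 0.894). Set against WT rats separately, AKO-named rats were at 0.78 for Col6a1, 1.73 for Ftcd, 0.32 for Col6a2 and 0.37 for Lss, and KAH-named rats at 0.88, 2.44, 0.66 and 0.28. These are the same AKO rats as above, split, and the values are a description.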

How the data were processed

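RNA from brain tissue labelled frontal cortex was sequenced in 10 WT, 10 HIP and 10 AKO rats, 1 library per rat, and groups were taken from the genotype in the sample annotation. Per the labels and the study's methods, the authors aligned the reads to rn7 with STAR 2.7.8a in Partek Flow 10.0.22.0228, with Bowtie2 also named, counted them on Ensembl genes and applied DESeq2 normalization. The deposited signal values, normalized counts, are not whole numbers. The value of 1 read was estimated per rat as the smallest of the low values that were repeated often among its genes. The share of values below 100 that were whole multiples of this value (tolerance 0.02) was then computed. This share was 80.8% to 84.4%, so no test of whole counts was run.

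Groups were compared with limma 3.58.1 in R 4.3.3 (lmFit, eBayes with trend, two-sided) on log2(normalized count + 1), keeping genes whose mean over the rats compared reached 1. Benjamini-Hochberg adjustment ran over all genes tested (17058 to 17092 between the 3 groups), at a threshold of 0.05. All 10 genes passed the filter in every comparison. The fit was tested on simulated data. Correlations used Python 3.11.15 and scipy 1.17.1, with 100000 resamples for the permutation tests. Names and gene order came from a RefSeq table of GRCr8, in which 13859 symbols were found, and 420 of 1360 chromosome 20 table genes were matched.

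The genes and all lists were chosen with earlier results of these data known. The genes named are the 10 members, the 3 most like Ftcd and Col6a1, and genes of each list. Of each list these are the 2 with the smallest p in HIP vs. WT and the 2 with the largest difference in AKO vs. WT. Others were picked by hand or named after their values were seen. Alternatives were quantile normalization, robust eBayes, the library number as a covariate, all 30 rats in 1 fit, AKO-named or KAH-named rats alone, 3 libraries left out, each rat left out in turn, a pseudocount of 0.1 or of 5, and a minimum mean of 10 or none. Leaving out 6 libraries and the fibroblast marker covariate were chosen after the data were seen. Iapp is not analysed here.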

Additional observations from a re-analysis of the deposited data

Results flagged for a closer look

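In 4 of 30 groups of values (10 genes in 3 groups of 10 rats), 1 rat lay farther from the others than Dixon's 95% critical value for 10 samples allows, where chance would flag 1.5. Slc19a1 was at 438.883 normalized counts in WT rat 10RT43, while the other WT rats were at 139.23 to 186. Slc19a1 was at 248.233 in HIP rat 10RT46, while the other HIP rats were at 122 to 173. Pcnt was at 848.898 in AKO rat 4KAH27, while the other AKO rats were at 379 to 582. Dip2a was at 337.748 in AKO rat 6KAH98, while the other AKO rats were at 747 to 983. All 4 rats are among the 6 whose libraries stood apart over many genes, and neither Ftcd nor Col6a1 had such a rat in any group.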

How the results depend on the processing

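Calls of the 10 genes in AKO vs. WT rats numbered 2, and 0 with AKO-named rats alone (limma, 0.399% of all genes called), 0 with KAH-named rats alone (0% of all genes), 1 with a pseudocount of 0.1, 3 with the fibroblast marker covariate, where Col6a2 was added, and 1 to 2 with 1 rat left out. In HIP vs. AKO rats they numbered 1, and 0 with KAH-named rats alone (0.0175% of all genes), 2 with a pseudocount of 5, 2 without 10RT43, 10RT46 and 10RT48, 2 without 6 libraries and 1 to 2 with 1 rat left out. The cause was not tested. Other settings gave 0 calls in HIP vs. WT rats, 0 between AKO-named and KAH-named rats and 0 among the neighbours. The likeness of Ftcd and Col6a1 was 0.6204 over 30 rats, 0.6552 by Spearman correlation and 0.1718 with group means taken away.

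Counted over the 10 genes and all settings, signs near 0 turned in 18 of 299 values of HIP vs. WT and 7 of 170 of AKO-named vs. KAH-named rats. In AKO vs. WT rats Slc19a1 was above 0 in 4 of 33 settings. In HIP vs. AKO rats the sign turned in 1 of 33 settings for Slc19a1 and for Mcm3ap, at 0.052 and -0.0082 with AKO-named rats alone. In HIP vs. WT rats the library number as a covariate gave -0.062 for Col6a1, -0.029 for Col6a2 and -0.028 for Dip2a. Leaving out 10RT43, 10RT46 and 10RT48 gave -0.024 for Col6a2, 0.020 for Lss and -0.013 for Dip2a, and leaving out 6 libraries gave -0.061 for Col6a2, 0.022 for Mcm3ap and -0.00014 for Prmt2. With 1 rat left out, Col6a2 was at -0.049 to 0.089, Lss at -0.084 to 0.0044 and Dip2a at -0.026 to 0.035 in HIP vs. WT rats, and Lss at -0.13 to 0.24, Pcnt at -0.17 to 0.21, S100b at -0.17 to 0.018 and Prmt2 at -0.095 to 0.17 in AKO-named vs. KAH-named rats. In AKO-named vs. KAH-named rats the library number gave 0.0062 for Pcnt and quantile normalization 0.019 for S100b. No paired analysis was possible because replicate numbers were given in accession order and pair no rats. The pseudocount set the AKO vs. WT difference of Ftcd, 2.52 at 0.1 and 1.35 at 5, and about 1 read is the precision of Ftcd in each rat.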
